A study of Mus musculus with 6 samples.

Results

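Myc, the 3 Gadd45 genes and 6 immediate early genes were followed in mouse livers that lacked Nogo and in those of wild-type littermates. The 10 genes, Myc, Gadd45a, Gadd45b, Gadd45g, Fos, Jun, Junb, Egr1, Ier2 and Atf3, were taken by gene name from a count table of 54232 genes, and each name matched 1 row. They were chosen by name with the knockout and wild-type levels of these same libraries in view, so the genotype differences below describe the genes and are no independent test of the set. All mice were 8 weeks old and ate normal chow. The wild-type group comprised 3 livers, called wild type 2, 4 and 11 after the numbers in their titles, and the knockout group (Nogo-/-) comprised 3 livers, called knockout 1, 2 and 4. Nogo is the product of Rtn4, a membrane-shaping protein of the endoplasmic reticulum. How the allele was made, the sex of the mice, the hour of collection and the feeding state were not stated in the labels, which name no treatment other than the chow.

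Immediate early genes are switched on within minutes of a signal by transcription factors that are already present in the cell, and their mRNAs are short-lived. Many of them encode transcription factors: Fos, Jun and Junb are subunits of the dimeric factor AP-1, Egr1 is a zinc-finger factor, and Atf3 is a stress-induced factor related to AP-1. In liver they are known for the burst that follows partial hepatectomy, and Myc, which binds DNA with its partner MAX and drives growth and ribosome production, follows in the same response. The Gadd45 genes encode small acidic proteins that respond to growth arrest and DNA damage. They bind the replication clamp PCNA, the cell cycle inhibitor encoded by Cdkn1a and the kinase encoded by Map3k4, which opens the p38 and JNK pathways.

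Libraries held 17568223 to 20902369 counts, and a count of 3 corresponded to 0.139 to 0.199 CPM, the count scaled to library size by TMM and used as the level unit throughout. Rtn4 was at 40.5 to 56.0 CPM in wild type and 4.63 to 8.22 CPM in knockout, which matches the labels. The share of mitochondrially encoded genes was 6.17% to 6.90% in the wild types, whereas knockout 1, 2 and 4 had 28.6%, 19.7% and 11.8%, so the libraries also differed by genotype in make-up. Hepatocyte markers were abundant in every library, their 11 genes summing to 98359 to 115914 CPM in wild type and 86477 to 123059 CPM in knockout. Markers of white blood cells were higher in knockout. Of the tested markers, 5 of 10 for T and NK cells, 6 of 8 for B cells and 3 of 3 for neutrophils rose. Their summed levels were 5.71 to 8.92, 14.3 to 21.4 and 2.75 to 4.09 CPM in wild type and 15.0 to 28.7, 31.3 to 73.2 and 7.76 to 17.9 CPM in knockout, and none of the listed markers was at 0 in all 6 libraries. The lists held 15 T and NK cell and 10 neutrophil markers, so some were too scarce to test. The filter on low counts could pass a gene on its knockout level alone. Erythroid markers were mixed. Of 6 tested, 1 rose and 1 fell, with sums of 300 to 508 CPM in wild type and 362 to 845 CPM in knockout. Of 12 sinusoidal endothelial markers 5 fell (sums of 305 to 389 CPM in wild type and 211 to 378 CPM in knockout), and of 12 Kupffer cell markers 1 fell, namely Folr2. Left-out libraries moved these counts (T and NK cells 1 without wild type 4 and 7 without knockout 4, endothelial falls 2 without wild type 2 or knockout 2, Kupffer cell falls 4 without knockout 2), and 0 were called with knockout 4 alone. The part of these cells and of the mitochondrial share in the results below was not tested except where a value is given, and in bulk tissue fewer cells of a type and less RNA per cell cannot be told apart.

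Among the 10 genes, Myc and Gadd45g were much lower in knockout liver, Ier2 and Gadd45a were higher, and the AP-1 genes, Egr1 and Atf3 overlapped between genotypes. All 10 passed the low-count filter. By edgeR with a Benjamini-Hochberg adjusted p under 0.05 over 13304 tested genes, 2 rose and 2 fell and 6 were not called. Over all tested genes 8.76% rose, 8.29% fell and 17.0% were called in either direction. The ranges of the genotypes stayed apart in 5 of the 10 genes, against 38.9% of all tested genes. Because the genes were proposed with this contrast in view, nothing is read from these shares. The median log2 fold change (knockout over wild type) was −0.15 over the 10 genes and 0.01 over all tested genes, and the median size of the change regardless of sign was 0.94 and 0.40.

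**Figure D1:**
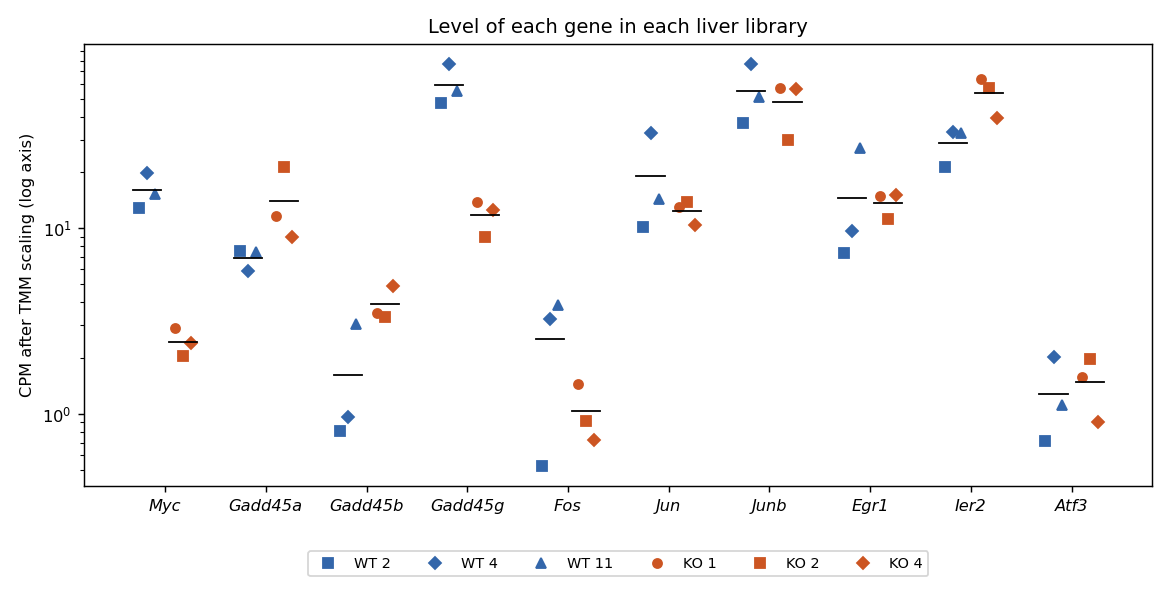
Level of each of the 10 genes in each library, in CPM on a log axis; blue marks are wild-type and orange marks knockout libraries, with a marker shape per library and a black line at the mean of each genotype. Myc and Gadd45g have 3 knockout values far below the 3 wild-type values, whereas Fos, Jun and Egr1 have wild-type values that spread more widely than the knockout values.

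Myc, a plus-strand gene of chromosome 15 at 61985391 to 61990374 in mm10, had levels of 12.9, 19.8 and 15.3 CPM in wild type 2, 4 and 11. In knockout 1, 2 and 4 it had 2.91, 2.04 and 2.41 CPM, from raw counts of 44, 38 and 40. The highest knockout level was thus well below the lowest wild-type level, and the 3 knockout livers lay close together. Mean levels were 16.01 ± 3.53 and 2.45 ± 0.44 CPM (SD, n = 3 each), so Myc fell 6.53-fold, or −2.71 ± 0.25 (SE) as a log2 fold change (edgeR, adjusted p = 0.00172). By p-value Myc ranked 4 among the 13304 tested genes. Its level was as low in knockout 4, with the smallest mitochondrial share among the knockouts, as in the other knockout livers. When knockout 4 alone was set against the 3 wild types the log2 fold change was −2.73 (edgeR, adjusted p = 0.054), and adjusting for mitochondrial share gave −2.91 (edgeR, adjusted p = 0.18). Myc was not called in either fit, and the SE of the adjusted value was 0.45. The mitochondrial share was higher in each knockout than in each wild type, so share and genotype cannot be told apart here.

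The Myc partner Max did not pass the test. It had 28.3, 27.7 and 22.3 CPM in wild type and 23.0, 26.8 and 24.97 CPM in knockout (log2 fold change −0.07 ± 0.17 SE). Of 20 tested partners and regulators of MYC, 4 rose and 0 fell (edgeR; at an unadjusted p under 0.05, 5 were higher and 2 lower, and among adjusted calls DESeq2 gave 1 fall and limma-voom 0). Their median log2 fold change was 0.28, beside 0.01 for all tested genes. The called share of this list, 20%, was near the 17.0% of all tested genes. Over all tested genes 8.76% rose and 8.29% fell. Pim1, a kinase that acts with MYC, rose from 16.2 ± 3.09 to 32.4 ± 4.21 CPM (0.997 ± 0.196 SE). Fbxw7, which marks MYC protein for destruction, rose from 7.30 ± 0.98 to 15.2 ± 4.85 CPM (1.05 ± 0.26). Tfap4, a factor known as a MYC target, rose from 4.74 ± 1.16 to 9.80 ± 2.08 CPM (1.04 ± 0.26). The fourth, Bin1, a MYC-interacting adaptor (0.56 ± 0.17), is named after its value was seen. The related gene Mycl had 9.26, 12.6 and 6.46 CPM in wild type and 7.15, 5.42 and 4.45 CPM in knockout, with overlapping groups (−0.74 ± 0.29, edgeR adjusted p = 0.101), and is also named after its value was seen. Library totals gave 2 rises and 2 falls in this list. The rises numbered 0 without wild type 4 and with knockout 4 alone, and 1 when wild type 2 or 11 or knockout 1 or 2 was left out. There was 1 fall without wild type 11 and 1 without knockout 4.

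Most genes that MYC is known to induce did not pass the test. Of 35 tested genes of growth and ribosome production, 2 rose, 5 fell and 28 were not called, with a median log2 fold change of −0.05. The called share of 20% was near the 17.0% of all tested genes. Nop56, a core protein of small nucleolar particles, rose from 16.01 ± 2.14 to 41.9 ± 2.89 CPM (1.39 ± 0.17 SE), and Ppan, a ribosome assembly factor, rose from 11.8 ± 1.56 to 27.7 ± 6.38 CPM (1.23 ± 0.21). Bop1, another ribosome assembly factor, fell from 24.4 ± 3.25 to 10.3 ± 3.87 CPM (−1.25 ± 0.26). Ddx18, a nucleolar helicase (−1.32 ± 0.26), and Apex1, a DNA repair nuclease (−2.35 ± 0.49), fell too, but 55.9% and 51.7% of their 50-base words occur in other genes, so their counts are uncertain. Odc1, the rate-limiting enzyme of polyamine synthesis and a textbook MYC target, fell (−1.02 ± 0.31), as did the chaperonin Hspd1 (−1.01 ± 0.23), with 24.3% and 42.1% of words shared. Both are named after their values were seen. Odc1 was at 12.7, 21.9 and 36.0 CPM in knockout 1, 2 and 4. Myc was at 2.91, 2.04 and 2.41 CPM in these livers. The order of 3 livers cannot show what the Odc1 level follows. A link of Odc1 to Myc or to the mitochondrial share was not tested. With knockout 4 alone 0 genes of this list were called in either direction, and without knockout 4 the falls numbered 11.

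Gadd45g was the predominant Gadd45 transcript of wild-type liver and fell in knockout, while Gadd45a rose. Gadd45g is a plus-strand gene of chromosome 13 (51846678 to 51848468), Gadd45a a minus-strand gene of chromosome 6 (67035096 to 67037457) and Gadd45b a plus-strand gene of chromosome 10 (80930073 to 80932204). All are protein-coding, with 4 exons in the longest transcript of each. Because paralogs of 1 family differed in direction, their start regions are shown side by side, 250 bases before to 50 bases after the RefSeq start (GRCm38.p6, the same assembly as mm10), read in the direction of the gene. The windows are chr13:51846425-51846724 (plus strand) for Gadd45g, chr6:67037358-67037657 (minus) for Gadd45a and chr10:80929841-80930140 (plus) for Gadd45b. Capitals mark the motifs found: CACGTG, the E-box to which MYC with MAX can bind, and TATAAA, the letters of a TATA box core.
Gadd45g: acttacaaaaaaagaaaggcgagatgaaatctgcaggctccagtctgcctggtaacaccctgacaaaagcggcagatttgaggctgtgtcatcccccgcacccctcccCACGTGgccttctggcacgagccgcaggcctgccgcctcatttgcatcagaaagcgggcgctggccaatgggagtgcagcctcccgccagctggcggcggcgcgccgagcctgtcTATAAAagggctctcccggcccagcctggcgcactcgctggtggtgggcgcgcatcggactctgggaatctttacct
Gadd45a: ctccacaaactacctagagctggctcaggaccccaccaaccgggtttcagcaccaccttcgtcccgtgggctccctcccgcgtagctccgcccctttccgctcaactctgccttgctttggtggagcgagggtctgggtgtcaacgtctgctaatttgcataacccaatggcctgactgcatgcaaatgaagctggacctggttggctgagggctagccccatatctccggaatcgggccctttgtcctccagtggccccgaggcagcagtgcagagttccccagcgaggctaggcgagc
Gadd45b: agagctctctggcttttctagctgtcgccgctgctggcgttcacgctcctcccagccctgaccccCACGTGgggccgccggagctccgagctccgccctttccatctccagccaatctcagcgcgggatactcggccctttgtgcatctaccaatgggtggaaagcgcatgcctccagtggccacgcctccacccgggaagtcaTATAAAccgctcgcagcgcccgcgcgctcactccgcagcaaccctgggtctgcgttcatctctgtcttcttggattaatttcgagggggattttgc

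The windows of Gadd45g and Gadd45b each held 1 E-box, beginning 142 and 185 bases before the start, and 1 TATAAA, beginning 27 and 46 bases before it. The window of Gadd45a held neither. Windows of 7 of the 10 genes were read. No window was given for Myc or Ier2, and member windows on chromosome 18, which holds Egr1, were left out. The counts below thus do not cover these genes. On both strands 8 motifs were searched: TGANTCA (AP-1), TGACGTCA (CRE), CACGTG, the CArG box bound by SRF, GCGTGGGCG (EGR), TGTTTAC (FOXO), TTCNNNGAA (STAT) and TATAAA. No 2 of these motifs overlapped in the matches found. TATAAA was in 4 of the 7 windows (Gadd45g, Gadd45b, Fos and Junb), against 13.6% of 32851 windows of the same length, at any position. In Fos it began 33 bases before the RefSeq start, whereas in Junb it began at base 1 of the RefSeq transcript. These distances depend on the start used. The GENCODE start of Junb (84978718, minus strand) lies further downstream, so that from it these letters lie upstream. For Gadd45b the GENCODE start (80930073) lies nearer its TATAAA than the RefSeq start does. The Atf3 window (191183284 to 191183583) lies far downstream of the start of its GENCODE gene (191218039, minus strand). For Gadd45a the GENCODE start (67037457) lies upstream of the RefSeq start. Windows at these other starts were not searched. CACGTG was in 2 of 7, against 7.15%. TGTTTAC was in 1 of 7 (Junb), against 3.65%, and the other 5 motifs were in 0 of 7, against 0.612% to 8.30%. These matches describe the letters of the windows and do not show that a factor binds there.

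Gadd45g had levels of 47.1, 76.7 and 54.6 CPM in wild type 2, 4 and 11. In knockout 1, 2 and 4 it had 13.8, 8.97 and 12.5 CPM. The groups were far apart, and knockout 2 was lowest, as it was for Myc. Mean levels were 59.5 ± 15.4 and 11.8 ± 2.52 CPM (SD, n = 3 each), a fall of 5.06-fold, or −2.34 ± 0.24 (SE) on the log2 scale (edgeR, adjusted p = 0.00195, rank 8 of 13304 by p). With knockout 4 alone the value was −2.25 (edgeR, adjusted p = 0.0651), and adjusting for mitochondrial share gave −2.44 (edgeR, adjusted p = 0.207).

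Gadd45a, which p53 induces, had 7.50, 5.92 and 7.43 CPM in wild type 2, 4 and 11. In knockout 1, 2 and 4 it had 11.6, 21.3 and 9.03 CPM. Each knockout liver was above each wild-type liver, but knockout 2 stood far above the other two. Mean levels were 6.95 ± 0.89 and 13.96 ± 6.45 CPM, a 2.01-fold rise (1.01 ± 0.30 SE, edgeR adjusted p = 0.0452). The call did not hold without wild type 2, 4 or 11 or without knockout 1 or 2 (edgeR, adjusted p from 0.074 to 0.159), and without knockout 2 the log2 fold change was 0.57. It also missed the threshold with library totals (0.87, edgeR adjusted p = 0.0957) and limma-voom (0.92, adjusted p = 0.0591). Adjusting for mitochondrial share gave 0.76 (edgeR, adjusted p = 0.705), and with knockout 4 alone the log2 fold change was 0.38. A noncoding gene on the opposite strand, E230016M11Rik, shares 337 exon bases with Gadd45a, and 15.6% of the 50-base words of Gadd45a occur in other genes. The noncoding gene had 86 counts over the 6 libraries, whereas Gadd45a had 111 to 396 counts in each.

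Gadd45b, which responds to cytokines and TGF-beta, was the rarest of the family, with 0.807, 0.960 and 3.07 CPM in wild type 2, 4 and 11. In knockout 1, 2 and 4 it had 3.51, 3.33 and 4.87 CPM. The groups did not overlap, but wild type 11 was much nearer the knockout livers than to the other wild types. The means were 1.61 ± 1.26 and 3.90 ± 0.84 CPM, and the gene was not called (1.26 ± 0.47 SE, edgeR adjusted p = 0.0898). The fit without wild type 11 gave 2.13 (edgeR, adjusted p = 0.0186), limma-voom gave 1.49 (adjusted p = 0.0427), and the fit with no low-count filter gave 1.22 (edgeR, adjusted p = 0.00715). In 12 of 16 alternatives Gadd45b was not called. Among these were DESeq2 (1.25, adjusted p = 0.0519) and the fits without wild type 2 (0.93, edgeR adjusted p = 0.248) or wild type 4 (0.996, edgeR adjusted p = 0.251).

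The make-up of the family differed as its total did. Per kilobase of longest transcript, the 3 genes summed to 50.8, 77.2 and 59.5 CPM per kb in wild type 2, 4 and 11 and to 25.1, 28.4 and 22.9 CPM per kb in knockout 1, 2 and 4. Gadd45g supplied 86.7%, 92.8% and 85.8% of that sum in wild type and 51.4%, 29.5% and 51.1% in knockout. In raw counts Gadd45g took 85.0% of 1167 family counts in wild type 2 (95% exact binomial interval 82.8% to 87.0%) and 26.7% of 625 in knockout 2 (23.3% to 30.4%), intervals that cover counting error only. In knockout 2 Gadd45a was the leading member, at 17.4 CPM per kb against 8.37 CPM per kb for Gadd45g. The plot of Gadd45 transcripts by library shows the loss of the Gadd45g segment.

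**Figure D2:**
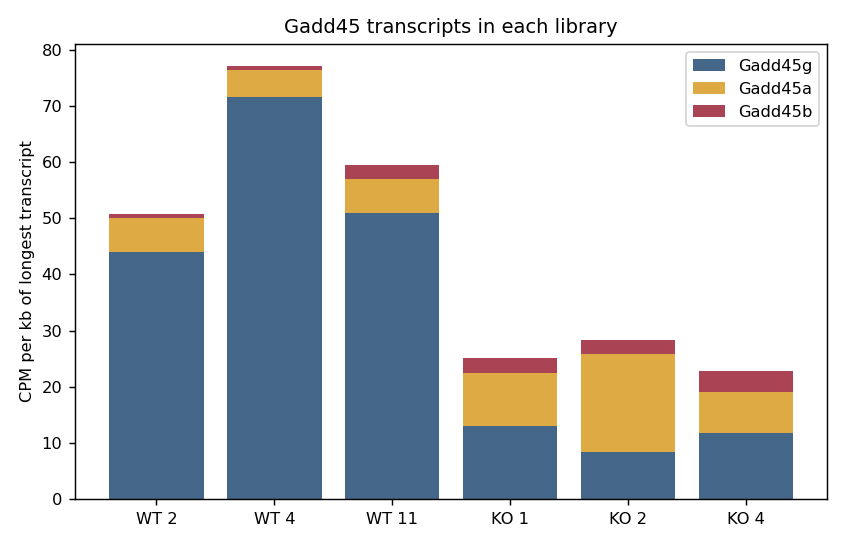
Stacked bars give the level of each Gadd45 gene in each library, in CPM per kb of its longest transcript. The bars reach 50.8 to 77.2 in wild type (WT) and 22.9 to 28.4 in knockout (KO), and the Gadd45g segment shrinks while the Gadd45a and Gadd45b segments are larger in knockout.

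Known partners of the Gadd45 proteins were read from the related lists, and Map3k4, Cdkn1a and Trp53 are named after their values were seen. Pcna, the replication clamp, fell from 36.2 ± 2.36 to 20.0 ± 7.23 CPM (−0.85 ± 0.24 SE, and 19.1% of its 50-base words occur elsewhere). Its levels were 13.5, 18.7 and 27.8 CPM in knockout 1, 2 and 4, and a link to the mitochondrial share was not tested. Map3k4 was at 17.1 ± 1.44 CPM in wild type and 14.4 ± 1.42 CPM in knockout and did not pass (−0.25 ± 0.18). Cdkn1a was at 1.54 ± 0.99 and 0.73 ± 0.37 CPM with overlapping groups (−1.06 ± 0.57, not called), and Trp53, which encodes p53, at 12.6 ± 1.55 and 19.3 ± 3.82 CPM without overlap (0.61 ± 0.20, edgeR adjusted p = 0.0615). In the list of the p53 and DNA damage response the called share was 13.6%, beside 17.0% of all tested genes. Of its 22 tested genes 1 rose and 2 fell (median −0.16). These were Bax, a mediator of cell death, from 22.2 ± 4.13 to 42.5 ± 3.22 CPM (0.94 ± 0.18), Pcna, and the repair gene Xpc, from 13.4 ± 1.66 to 8.28 ± 1.02 CPM (−0.69 ± 0.20). Leaving out wild type 2 or 4 or knockout 1 or 2 gave 0 falls, and the rise was lost without wild type 2 or wild type 4.

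The AP-1 subunits varied widely between wild-type mice, and by edgeR none of the 3 was called (0 also at an unadjusted p under 0.05 and by DESeq2 and limma-voom). Fos is a plus-strand gene of chromosome 12 (85473890 to 85477273), and Jun and Junb are minus-strand genes of chromosome 4 (95049034 to 95052222) and chromosome 8 (84974484 to 84978718). Fos was scarce, with 0.522, 3.25 and 3.85 CPM in wild type 2, 4 and 11 from raw counts of 11, 61 and 83. It had 1.46, 0.913 and 0.722 CPM in knockout 1, 2 and 4, from 22, 17 and 12 counts. Wild type 2 was the lowest of all 6 livers while the other wild types were above every knockout, so the groups overlapped through 1 mouse. The log2 fold change was −1.31 ± 0.62 SE with a 95% interval of −2.67 to 0.06 (edgeR, adjusted p = 0.164). Without wild type 2 it was −1.80 (edgeR, adjusted p = 0.0349), and with limma-voom −0.91 (adjusted p = 0.416).

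Jun had 10.2, 32.7 and 14.4 CPM in wild type 2, 4 and 11 and 13.0, 13.9 and 10.5 CPM in knockout 1, 2 and 4. Wild type 4 stood apart, and the other 2 wild types lay within or next to the knockout range. The log2 fold change was −0.61 ± 0.37 SE (95% interval −1.42 to 0.20, edgeR adjusted p = 0.263) and without wild type 4 it was 0.01. With no low-count filter it was −0.67 (edgeR, adjusted p = 0.028). Junb, the more abundant of the pair, had 37.0, 76.5 and 51.2 CPM in wild type and 57.3, 29.8 and 56.6 CPM in knockout, again with wild type 4 highest. Its log2 fold change was −0.20 ± 0.30 SE, with a 95% interval of −0.87 to 0.47. Opposite-strand genes overlap both: Prdx2, with 17186 counts over the 6 libraries, shares 173 exon bases with Junb, and Junos, with 29 counts, shares 232 with Jun. Whether the counting used strand was not stated, so reads of Junb and Prdx2 from those bases cannot be told apart here.

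Egr1, a plus-strand gene of chromosome 18 (34859823 to 34864984), had 7.36, 9.65 and 26.9 CPM in wild type 2, 4 and 11. In knockout 1, 2 and 4 it had 14.9, 11.2 and 15.0 CPM. Wild type 11 was the highest liver and the other 2 wild types were the lowest, so the knockout livers lay in between. The log2 fold change was −0.10 ± 0.41 SE (95% interval −1.002 to 0.80), and it was 0.68 without wild type 11 (edgeR, adjusted p = 0.0924). Atf3, a minus-strand gene of chromosome 1 (191170296 to 191218039), was the scarcest per kilobase in wild type, with 0.712, 2.03 and 1.11 CPM in wild type and 1.59, 1.99 and 0.903 CPM in knockout. The groups overlapped (0.23 ± 0.47 SE, 95% interval −0.80 to 1.26), and the interval leaves room for a difference in either direction.

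Ier2, an intronless gene for a small nuclear protein, is also on the minus strand of chromosome 8 (84661331 to 84662852). Its levels were 21.3, 33.0 and 32.7 CPM in wild type 2, 4 and 11 and 64.0, 57.0 and 39.3 CPM in knockout 1, 2 and 4. All knockout livers were above all wild-type livers. The mitochondrial shares of knockout 1, 2 and 4 were 28.6%, 19.7% and 11.8%. On average Ier2 was at 29.0 ± 6.67 and 53.4 ± 12.7 CPM (SD, n = 3 each), a 1.84-fold rise (0.88 ± 0.24 SE, edgeR adjusted p = 0.0305). Adjusting for mitochondrial share gave a log2 fold change of 0.32 ± 0.34 SE (edgeR, adjusted p = 0.808), and with knockout 4 alone it was 0.44. The share was higher in each knockout than in each wild type, so share and genotype cannot be told apart. The part of the share in this rise was not tested. The call was also lost with library totals (0.70, edgeR adjusted p = 0.0658) and in each fit that left out wild type 2, 4 or 11 or knockout 1 or 2 (edgeR, adjusted p from 0.0532 to 0.128). Per kilobase Ier2 passed from the third most abundant of the 10 genes in wild type (19.0 ± 4.38 CPM per kb) to the first in knockout (35.1 ± 8.33). In wild type Gadd45g was first (55.5 ± 14.4) and Junb second (30.3 ± 11.1). Junb was second in knockout as well (26.5 ± 8.66), and Ier2 and Junb did not differ beyond their spread there.

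**Figure D3:**
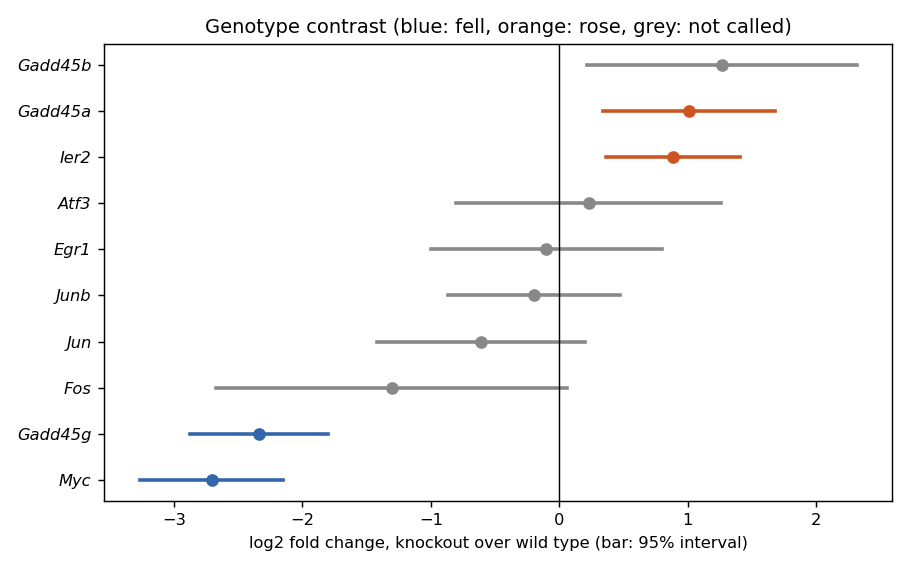
Log2 fold change of each gene, knockout over wild type, with its 95% interval from edgeR. The intervals of Myc (−3.27 to −2.15) and Gadd45g (−2.87 to −1.80) lie far from 0, those of Ier2, Gadd45a and Gadd45b lie above 0 by less, and those of Fos, Jun, Junb, Egr1 and Atf3 include 0.

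The spread between wild-type mice was itself large for these genes. It was measured as the SD of log2(CPM + 0.5) over the 3 wild-type livers. This measure does not use the genotype contrast, but the wild-type levels were also in view when the genes were chosen. The median SD was 0.53 over the 10 genes and 0.20 over all 13304 tested genes, and 6 of the 10 were among the 10% of tested genes with the largest spread. Fos varied 7.38-fold between its lowest and highest wild-type liver, Gadd45b 3.80-fold, Egr1 3.66-fold and Jun 3.22-fold. Their SDs stood at the 99.7, 98.8, 99.4 and 99.0 percentiles of tested genes. Fos and Gadd45b had 11 to 83 counts in a library, but Egr1 and Jun lay near the middle of the range of levels (percentiles 55.7 and 58.1). Gadd45a, in contrast, varied 1.27-fold, at the 45.4 percentile.

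Wild type 2 was the lowest wild type in 9 of the 10 genes, Gadd45a being the exception, against 28.3% of all tested genes. The highest wild type was not a single liver, being wild type 4 for 6 genes and wild type 11 for 3. Among the knockout livers the spread was smaller. The median SD was 0.33, beside 0.28 over all tested genes, and Gadd45a alone was among the 10% with the largest spread. In 7 of the 10 genes the wild-type SD exceeded the knockout SD, against 33.4% of all tested genes. These are descriptions of 3 livers a group, and the difference in spread was not tested.

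**Figure D4:**
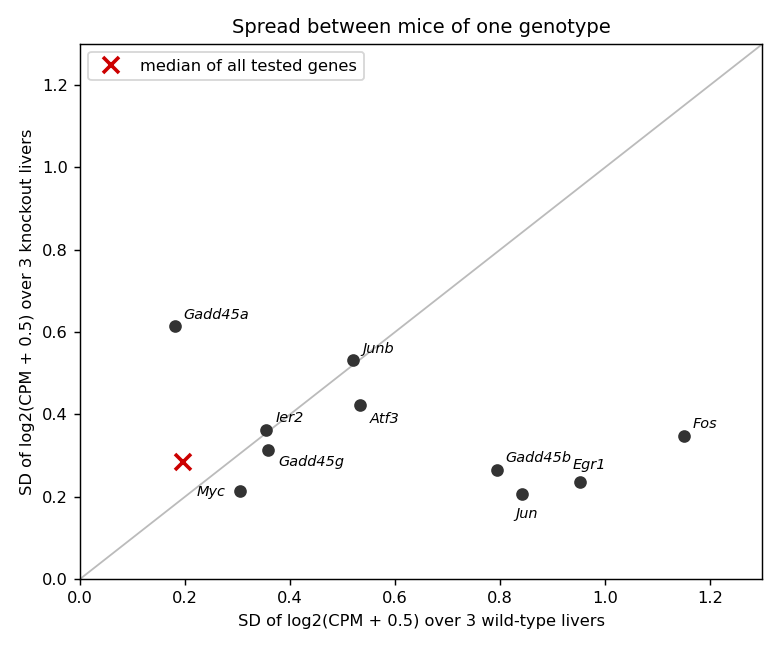
SD of log2(CPM + 0.5) over the 3 wild-type livers (horizontal axis) and the 3 knockout livers (vertical axis) for each gene, with the median of all tested genes as a red cross at 0.20 and 0.28 and the line of equal spread in grey. Fos, Egr1, Jun and Gadd45b lie far to the right, and Gadd45a alone lies well above the line.

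Other immediate early genes were read from a list of 44 genes, of which 38 were tested. Of these 6 rose and 2 fell, a share of 21.1% beside 17.0% of all tested genes, and the median log2 fold change was −0.04. Id1, an inhibitor of helix-loop-helix factors that BMP signals induce, rose from 5.41 ± 1.15 to 17.9 ± 5.58 CPM (1.73 ± 0.27 SE). Klf10, a TGF-beta-inducible zinc-finger factor, rose from 18.02 ± 4.72 to 49.3 ± 13.7 CPM (1.45 ± 0.26), and Cyr61, a matrix-associated signalling protein, from 5.71 ± 1.41 to 12.9 ± 1.99 CPM (1.18 ± 0.24). The remaining rises, Id2 (1.05 ± 0.28), Id3 (0.66 ± 0.18) and Cebpb (0.74 ± 0.22, with 18.1% of its words shared), are named after their values were seen. Zfp36l2, which speeds the decay of AU-rich mRNAs, fell from 46.8 ± 6.86 to 23.4 ± 1.69 CPM (−0.997 ± 0.175), and Socs3, a cytokine feedback inhibitor, fell as well. The rises numbered 2 to 9 in the fits that left out 1 library (2 without wild type 2 and 9 without knockout 4), 3 with library totals and 0 with knockout 4 alone.

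Of the listed relatives of Fos, Jun and Egr1, Fosl2 and Jund were tested and Fosb, Fosl1, Egr2 and Egr3 were too scarce to test, and these relatives are named after their values were seen. Fosl2, another AP-1 subunit, had 7.88, 20.1 and 12.9 CPM in wild type 2, 4 and 11 and 12.5, 8.81 and 7.22 CPM in knockout 1, 2 and 4. The groups overlapped and wild type 4 was highest, as it was for Jun and Junb (−0.52 ± 0.33 SE, not called). Fosb, Fosl1, Egr2, Egr3, the nuclear receptor gene Nr4a3 and the phosphatase gene Dusp2 did not pass the low-count filter, and Egr2 had 0 counts in all 6 libraries. The means of the other five were 0.07 to 0.25 CPM in wild type and 0.06 to 0.58 CPM in knockout. Jund, a more constant AP-1 subunit, had 4.04, 3.47 and 2.88 CPM in wild type and 4.17, 3.71 and 2.71 CPM in knockout (0.03 ± 0.28 SE), although 48.3% of its words are shared with other genes. The 38 tested genes had a median wild-type SD of 0.32, between the 0.53 of the 10 genes and the 0.20 of all tested genes, and 11 of them were among the 10% with the largest spread.

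Of 30 tested upstream kinases and factors, 2 rose and 1 fell (median −0.02). Elk4, a ternary complex factor that acts with SRF at immediate early genes, rose from 34.1 ± 1.52 to 63.5 ± 10.3 CPM (0.90 ± 0.18 SE). Map2k3, which activates p38, rose from 65.9 ± 9.67 to 108 ± 11.2 CPM (0.71 ± 0.18), while Mapk14, which encodes p38 alpha itself, fell from 64.9 ± 8.95 to 43.1 ± 3.13 CPM (−0.59 ± 0.17). Of 18 other tested genes of the integrated stress response, the pathway that is known to induce Atf3, Chac1, a glutathione-degrading enzyme, fell (−1.42 ± 0.37) and 0 rose (edgeR; 6 were higher at an unadjusted p under 0.05, and DESeq2 and limma-voom called 1 and 3 rises). Atf4, the central factor of that response, was at 100 ± 19.4 and 143 ± 19.4 CPM and did not pass (0.51 ± 0.20). Of 17 tested clock genes Ciart, a circadian repressor, rose (1.54 ± 0.34) and 0 fell (edgeR; 2 were lower at an unadjusted p under 0.05, and DESeq2 and limma-voom called 0). The called shares of the upstream, stress response and clock lists were 10%, 5.56% and 5.88%, beside 17.0% of all tested genes. Single libraries decided some of the counts: the upstream rises numbered 0 without wild type 2 or wild type 4 and 5 without knockout 4. The upstream falls numbered 0 when any 1 of the wild types or knockout 1 was left out. The stress response falls numbered 0 when wild type 2 or 4 or knockout 2 was left out and 3 without knockout 4, and the clock rises 0 without wild type 4 or knockout 1.

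**Figure D5:**
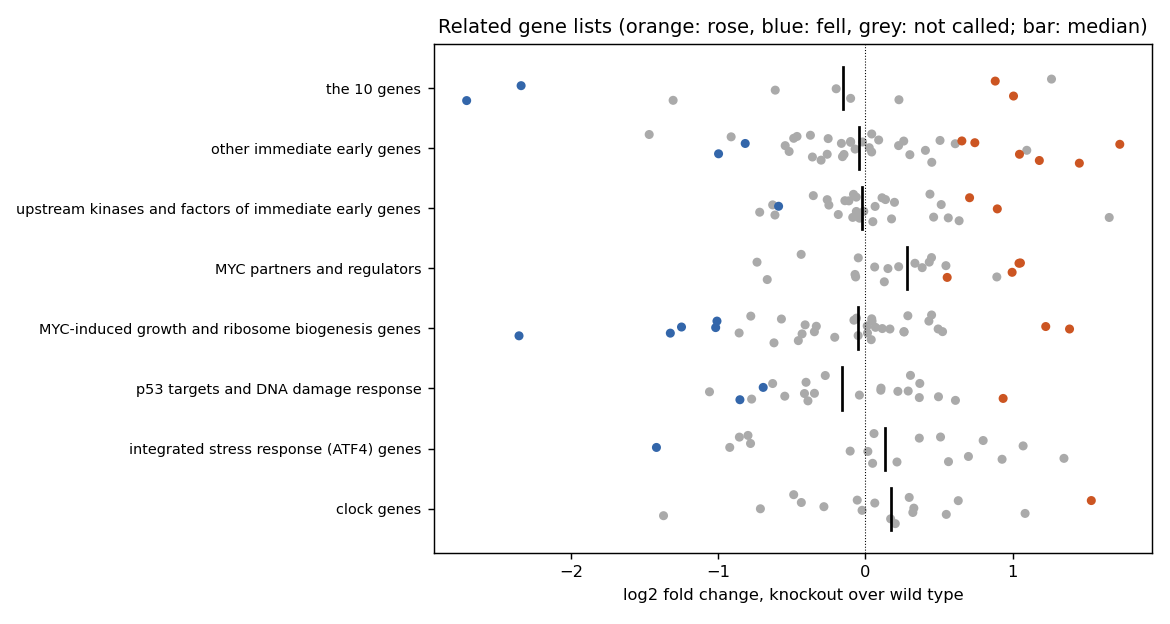
Log2 fold change (knockout over wild type) of each tested gene in the set of 10 and in 7 related lists, spread vertically for legibility; orange points rose, blue points fell, grey points were not called, and black bars are medians. The medians lie between −0.16 and 0.28 while Myc and Gadd45g sit at the far left of the top row.

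The genes share a compact structure, which was not used to pick them. Each of the 10 had at most 4 exons in its longest transcript, and 27.0% of 11891 tested protein-coding genes did (GENCODE M21). Of the 10 genes 8 spanned under 5000 bases, against 10.5% of tested protein-coding genes, and the median span was 3286 bases beside 24227. Jun, Junb and Ier2 had a single exon in the longest transcript, and Egr1 had 2. The exceptions in span were Egr1, just over that limit at 5162 bases, and Atf3, at 47744 bases. In Myc, Gadd45b, Gadd45g, Fos, Egr1, Ier2 and Atf3 no 50-base word was found in another gene.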

How the data were processed

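Liver RNA of 3 knockout and 3 wild-type mice was extracted with an RNeasy kit and sequenced from SMARTer mRNA-Seq libraries, per the labels' protocols. The authors deposited raw counts per gene for 6 libraries, whole numbers without normalization. The submitters' processing notes name mm10 as the build. The aligner, counter, annotation and strandedness were not given in the sources used here. Gene positions, exons and lengths came from GENCODE M21, which matched 54079 of 54232 identifiers, and start regions from RefSeq (GRCm38.p6).

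Counts were tested in R 4.3.3 with edgeR 4.0.16 (quasi-likelihood F test, TMM, filterByExpr, Benjamini-Hochberg over 13304 genes, two-sided, called under 0.05, no covariate). The SE was taken from the fold change and F (log2 fold change over root F, without sign), and 95% intervals use the total degrees of freedom of the test. CPM are levels after TMM scaling, and 0.5 was added before logs of single libraries. DESeq2 1.42.0, limma 3.58.1 (voom) and other settings were alternatives, and knockout 4 alone was added after the data were seen. The procedure was tested on simulated data, where it recovered 39.4% of 2-fold and 89.5% of 4-fold changes. A gene that was not called may thus still differ. Of the 130 calls on the simulated data 8 were false. Libraries of 1 genotype differed by a chi-square of 21.0 to 171 per degree of freedom, so each counted as a sample. P-values thus rest on the spread among these livers only.

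The 10 genes and the related lists were chosen with earlier results of these data known. The text names all 10 genes, Rtn4, and up to 3 called genes per direction of each list by smallest p. Other names are marked. Words of 50 bases were compared with all GENCODE transcripts on both strands.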

Additional observations from a re-analysis of the deposited data

How the results depend on the processing

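The count of genes called was 0 when the mitochondrial share was a covariate (edgeR; 1146 at an unadjusted p under 0.05), 25 with knockout 4 against the 3 wild types, and 630 (without wild type 4) to 4046 (without knockout 4) when 1 library was left out. Scaling by library totals gave 690 rises and 1566 falls (1165 and 1103 under TMM) and a median over all genes of −0.16. Of the 10 genes, 0 rose with library totals, with that covariate or with knockout 4 alone (3, 0 and 1 were higher at an unadjusted p under 0.05), and 0 to 2 rose when 1 library was left out. The number that fell was 4 with no low-count filter (Fos and Jun joined Myc and Gadd45g), 0 in the covariate fit and in that of knockout 4 (edgeR; Myc and Gadd45g were at an unadjusted p under 0.05 in both), and 2 to 3 when 1 library was left out. Myc and Gadd45g were called in 14 of 16 alternatives each, including each of the 6 fits that left out 1 library. Over all 16 their log2 fold changes ran from −2.91 to −2.54 and from −2.53 to −2.12. Gadd45a lost its call in 9 and Ier2 in 8 of 16. No called gene of the 10 changed sign in any of them, while Jun, Junb, Egr1 and Atf3, which were not called, changed sign in 1, 3, 5 and 4. The libraries numbered 2 and 4 occur in both genotypes, but nothing says that a number marks a litter, and deviations of same-numbered libraries correlated at −0.05 and 0.06. With the replicate block 1686 genes were called, and 3 of the 10 genes rose (Gadd45b joined, at 2.19, adjusted p = 0.00186) and 2 fell. With no low-count filter 3 rose as well. The cause was not tested. The counting depth limits Fos, Gadd45b and Atf3, which had 11 to 83 counts in a library.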
